A study of Mus musculus with 6 samples.

Results

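The Fox, Sox, Pax, Tbx and Gata genes encode 5 families of transcription factors that build tissues in the embryo. The 49 genes described here are 15 Fox, 14 Sox, 7 Pax, 9 Tbx (the T-box family, with Eomes) and 4 Gata genes, of 21896 protein-coding genes in the annotation. They were taken from a list of developmental members of these families, and each gene was read from 2 kb below its lower end to 2 kb above its upper end on the mouse build GRCm38. All 49 had measured cytosines, 9739 in all, from 24 at Tbx20 to 498 at Pax2, with a median of 191 per gene. They lie on 18 chromosomes. The flanked spans of 4 of them also hold part of another protein-coding gene (Foxa1, Foxa3, Pax6 and Pax9).

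The study compared DNA methylation between 3 libraries labelled TET2 Knock-Out (KO) and 3 labelled TET2 Wild-Type (WT). All 6 came from spleen cells of C57BL/6 mice that are labelled as naive B cells in the sample records, while the series design text speaks of germinal centre B cells. Libraries are numbered 1 to 3 in each genotype. The labels do not say how the Tet2 allele was made, which cells lost it, the age of the mice, or whether each library is a separate mouse, so the spread given here is between libraries and may be technical. The assay was enhanced reduced representation bisulfite sequencing, in which restriction fragments rich in CpG (a C followed by a G) are treated with bisulfite and unmethylated cytosines are read as T. A methylation level is the percentage of reads at a cytosine that kept the C. The 2 strands of a CpG are separate cytosines.

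TET2 is a dioxygenase that oxidises 5-methylcytosine to 5-hydroxymethylcytosine, a step towards demethylation, and bisulfite sequencing reads both forms as methylated. Developmental transcription factor genes typically sit in long CpG-rich stretches that stay largely unmethylated and that Polycomb complexes hold silent in tissues where the gene is not used. Most of the 49 genes act in organs outside the blood, but some, such as Sox4, Gata2, Eomes and Sox6, also have known roles in blood cells.

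Each library listed 1551481 to 1626375 cytosines with at least 10 reads, and 168455105 to 207065050 reads in all. The analysis used the 1457048 cytosines present in all 6 libraries, with a median coverage of 92 to 110 reads per library. Of the 10 B cell marker genes checked, 5 had a measured window at a gene end, and 3 of these were under 10% in WT (including Pax5 at 0.201% and Cd79b at 1.08%), while Cd22 was at 30.5% and Blk at 87.0%. Of 10 T cell markers 4 were measured, with 1 window under 10% (Cd4), and of 8 myeloid markers 2 were measured, both at 50% or more. Of 5 erythroid markers 3 were measured in 4 windows, with Klf1 at 0.558%, Epor at 64.6% and Slc4a1 at 97.6% and 49.9% in WT. The second Slc4a1 window was at 33.9% ± 4.19 (SD, n = 3) in KO, with all KO libraries below WT, and its part in the results below was not tested. The markers cover too few windows to separate naive from germinal centre cells.

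The promoters of 5 members show how the same CpG-rich sequence class differs in methylation. Each stretch below runs from 250 bases before to 50 bases after the gene start, 5′ to 3′ on the gene's strand, from RefSeq on GRCm38.p6. Capitals mark CG pairs with at least 1 measured cytosine. Foxc1, needed for eye, heart and vessel development, and Sox21, a neural factor, are shown as promoters near 0, Pax6, the eye and pancreas regulator, as one at a few percent, Gata2 as one of a gene used in blood stem cells, and Tbx1, which patterns the pharyngeal arches, because its 2 starts differed.
Foxc1, chr13:31806396-31806695, + strand: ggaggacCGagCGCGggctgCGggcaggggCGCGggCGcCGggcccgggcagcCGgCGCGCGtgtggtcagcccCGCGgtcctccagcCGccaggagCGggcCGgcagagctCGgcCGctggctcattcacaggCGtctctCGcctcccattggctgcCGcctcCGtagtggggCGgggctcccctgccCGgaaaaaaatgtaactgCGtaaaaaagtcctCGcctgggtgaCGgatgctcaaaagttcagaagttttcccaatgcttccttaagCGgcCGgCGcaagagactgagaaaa
Sox21, chr14:118236981-118237280, - strand: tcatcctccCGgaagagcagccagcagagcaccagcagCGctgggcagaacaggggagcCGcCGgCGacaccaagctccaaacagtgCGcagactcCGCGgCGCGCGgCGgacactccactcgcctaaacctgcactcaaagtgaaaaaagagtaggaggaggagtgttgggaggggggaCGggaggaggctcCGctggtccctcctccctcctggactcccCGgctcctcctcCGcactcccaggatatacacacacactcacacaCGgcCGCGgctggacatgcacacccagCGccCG
Pax6, chr2:105668646-105668945, + strand: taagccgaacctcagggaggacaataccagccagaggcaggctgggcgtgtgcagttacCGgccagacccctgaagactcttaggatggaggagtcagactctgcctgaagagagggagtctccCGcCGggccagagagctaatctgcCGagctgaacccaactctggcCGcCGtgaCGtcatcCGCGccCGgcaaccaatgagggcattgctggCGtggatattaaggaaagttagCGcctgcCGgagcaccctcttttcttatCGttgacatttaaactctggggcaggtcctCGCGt
Gata2, chr6:88193641-88193940, + strand: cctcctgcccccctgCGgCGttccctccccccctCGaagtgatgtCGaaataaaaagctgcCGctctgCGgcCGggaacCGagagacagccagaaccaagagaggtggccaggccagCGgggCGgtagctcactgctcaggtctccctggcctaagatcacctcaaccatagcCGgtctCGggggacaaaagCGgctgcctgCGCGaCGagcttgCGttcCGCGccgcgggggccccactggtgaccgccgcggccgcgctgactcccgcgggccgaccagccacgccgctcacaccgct
Tbx1 outer start, chr16:18590622-18590921, - strand: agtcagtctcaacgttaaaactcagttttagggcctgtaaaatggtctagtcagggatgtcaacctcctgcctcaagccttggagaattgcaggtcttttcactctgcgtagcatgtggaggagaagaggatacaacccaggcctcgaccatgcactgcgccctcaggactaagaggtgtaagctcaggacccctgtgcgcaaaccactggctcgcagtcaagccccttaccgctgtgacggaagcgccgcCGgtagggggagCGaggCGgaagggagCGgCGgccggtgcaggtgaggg
Tbx1 inner start, chr16:18588850-18589149, - strand: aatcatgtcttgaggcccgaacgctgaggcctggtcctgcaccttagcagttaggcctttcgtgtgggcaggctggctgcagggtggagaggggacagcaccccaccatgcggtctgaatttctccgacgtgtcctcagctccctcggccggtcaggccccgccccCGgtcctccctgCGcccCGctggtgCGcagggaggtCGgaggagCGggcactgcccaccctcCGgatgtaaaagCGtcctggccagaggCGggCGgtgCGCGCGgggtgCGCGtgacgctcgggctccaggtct

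In the Foxc1 promoter 46 cytosines averaged 0.301% ± 0.119 (SD, n = 3) in WT and 0.477% ± 0.337 (SD, n = 3) in KO. The 28 cytosines of the Sox21 promoter averaged 0.865% ± 0.326 (SD, n = 3) in WT and 1.29% ± 0.223 (SD, n = 3) in KO. The Pax6 promoter held 24 measured cytosines at 3.68% ± 1.23 (SD, n = 3) in WT and 3.88% ± 0.752 (SD, n = 3) in KO. The difference between genotypes was smaller than the spread within one of them at Foxc1 and Pax6, and at Sox21 the 2 genotypes overlapped between WT 1 (1.24%) and KO 3 (1.04%). The Gata2 promoter (22 cytosines) was at 1.30% ± 0.626 (SD, n = 3) in WT and 0.912% ± 0.508 (SD, n = 3) in KO.

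The 2 Tbx1 starts lie 1772 bases apart. The outer promoter had 5 measured cytosines, which were at 0% in all 3 WT libraries and in KO 2 and KO 3, and at 3.08% in KO 1. The inner promoter had 21 cytosines at 19.5%, 15.5% and 19.7% in KO 1 to 3 and 22.9%, 18% and 18.6% in WT 1 to 3. Single cytosines of the inner promoter ran from 4.68% to 47.6% in WT, and the genotypes overlapped. The inner Tbx1 promoter, with 26 CG pairs against 16 in the outer one, was thus partly methylated in both genotypes.

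Promoters of the members were rich in CG pairs. RefSeq entries matched 31 of the 49 genes, with 43 promoters between them. Their median was 18 CG pairs in 300 bases, and 35 of 43 (81.4%) had at least 10, against a median of 13 and a share of 56.7% over the 21262 promoters of all matched protein-coding genes. The motif counted was CG, which reads the same on both strands. At 462 of 462 measured positions in these sequences the base was a C on the measured strand.

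Methylation across the members was low, and low in a graded way. In the mean of the 3 WT libraries 82.4% of the members' cytosines were under 10%, against 69.9% over the spans of all protein-coding genes, and 4.84% were at 90% or more, against 19.5%. Within the low range the members stood apart from complete lack of methylation. Only 31.2% of their cytosines were under 1%, against 54.3% over all gene spans, while 51.1% lay from 1% to under 10%, against 15.6%. A further 5.91% lay from 10% to under 20%, against 1.84%. These shares are descriptions with no test, since cytosines within a gene share fragments and reads.

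**Figure D1:**
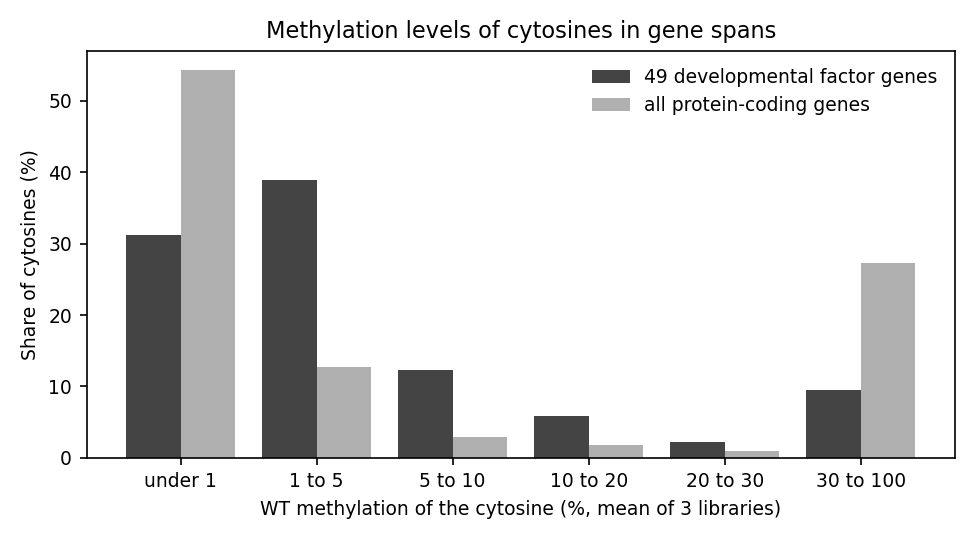
Share of cytosines (%, vertical axis) in 6 ranges of WT methylation (%, mean of 3 libraries, horizontal axis) for the 49 genes (dark bars) and for all protein-coding gene spans (light bars). The members peak from 1% to under 5% (38.9% of their cytosines), whereas all gene spans peak under 1% (54.3%).

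This graded low methylation was spread unevenly over the genes. Sox11, a neural progenitor factor, had 79.1% of its cytosines from 1% to under 10% in WT, Foxb1, active in the embryonic brain, had 76.6%, and Sox14, active in brain interneurons, had 75.3%. Tbx4, which directs hindlimb and lung growth, had the highest share of cytosines from 10% to under 30%, at 25%. It was followed by Foxc2, a lymphatic vessel regulator, at 20%, Foxe1, a thyroid factor, at 18.4%, and Sox14 at 17.2%.

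Gene starts followed the same pattern. The strand was known for 31 members, and a window of 1 kb each side of the start was read. The start was taken as the 5′ end of the gene's annotated span, which can lie away from a RefSeq promoter. In WT 27 of the 31 windows (87.1%) were under 10%, close to the 85.7% over 10731 windows of all genes with a known start. Yet only 5 of the 31 were under 1%, against 6479 of 10731, and the median window was at 2.88% against 0.469%. None of the 31 was at 50% or more, against 8.24% of all windows.

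The 5 highest starts were at Tbx4, Pax8, Gata5, Foxa3 and Pax1, each weighted equally over its cytosines. Tbx4 read 29.3%, 27.2% and 29.9% in KO 1 to 3 and 29.6%, 28.2% and 28.0% in WT 1 to 3. Pax8, a thyroid and kidney factor, read 27.1%, 21.6% and 24.3% in KO and 18.2%, 23.0% and 24.6% in WT, over only 8 cytosines. Gata5, a heart and endoderm factor, was at 15.5% ± 0.803 (SD, n = 3) in KO and 14.8% ± 1.39 (SD, n = 3) in WT. In all 3 the genotypes overlapped with equal weights. Pooled over reads, the Tbx4 start read 28.5%, 28.4% and 28.9% in KO and 31.7%, 29.4% and 29.3% in WT, all KO below all WT, a difference of -1.63 points (adjusted p = 0.911 by the quasi-binomial test moderated with limma). Foxa3, a liver factor, was at 11.0% ± 0.435 (SD, n = 3) in KO and 11.0% ± 0.410 (SD, n = 3) in WT, and Pax1, which patterns the vertebral column, at 6.34% ± 1.08 (SD, n = 3) in KO and 5.99% ± 0.820 (SD, n = 3) in WT.

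Sox4, Gata2 and Eomes, named for their roles in blood cells, all had starts under 3% in WT. Sox4, which is needed for early B cell development, was at 0.318% ± 0.208 (SD, n = 3) in KO and 0.142% ± 0.0987 (SD, n = 3) in WT over 67 cytosines. Eomes, a T-box factor of cytotoxic T and natural killer cells, was at 1.26% ± 0.442 (SD, n = 3) in KO and 1.30% ± 0.0118 (SD, n = 3) in WT. Gata2 was at 2.85% ± 1.47 (SD, n = 3) in KO, where KO 2 read 4.55%, and 2.44% ± 0.323 (SD, n = 3) in WT.

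The low stretches were long. An unmethylated run was taken as neighbouring measured cytosines that were each under 10% in the mean of a genotype, at most 2 kb apart. It was read at the gene start, or as the longest run in the flanked span for the 18 members without a known strand. The median run was 1.60 kb in WT for the members and 0.541 kb for 14826 genes measured in the same way. Runs over 3 kb were found at 6 of the 49 members (12.2%), against 1.53% of all genes. With neighbours at most 1 kb apart, 2 members (4.08%) had such a run, against 0.627% of all genes. The longest member run was then 3.51 kb, so the longer runs named below span gaps of over 1 kb. Called in single libraries, 1 to 3 members had a run over 3 kb. Foxa2, Pax8, Tbx4 and Gata5 had no run at the start, which was read only at the measured cytosine nearest to it. The Foxa2 start window as a whole was low, at 3.78% in WT over 38 cytosines. At Gata5 the RefSeq start lay 824 bases from the point used, and its promoter was at 3.45% in WT over 28 cytosines. At Tbx4 the RefSeq start lay 10398 bases away, with 0 measured cytosines in its promoter.

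The 5 longest runs were at Gata6, Sox21, Foxa1, Pax6 and Foxl2. Gata6, a heart and gut factor, had a run of 5.95 kb in WT and 5.87 kb in KO. The run at Sox21 was 5.16 kb in WT and 2.12 kb in KO, and that at Foxa1, a factor of liver and breast that opens chromatin, was 5.01 kb in WT and 3.20 kb in KO. At Pax6 it was 4.69 kb in WT and 0.054 kb in KO, and at Foxl2, which maintains the ovary, 3.51 kb in WT and 0.881 kb in KO. A run ends at the first cytosine whose mean reaches 10%, so 1 cytosine close to that level can set its length, and these 5 were chosen by their length in WT.

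Of the 49 members 23 had a shorter run in KO than in WT, 10 had a longer one and 16 were equal. The equal ones include the 4 with no run in either genotype. Of all genes, counted in the same way, 11.5% had a shorter run and 6.53% a longer one. With the limit set at 20%, 10 members were shorter and 6 longer, with a median of 2.42 kb in WT. Called in single libraries, the median run was 1.17, 0.877 and 1.05 kb in KO 1 to 3 and 1.33, 1.25 and 1.15 kb in WT 1 to 3, so that KO 1 was above WT 3 and the genotypes overlapped.

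Beyond the runs, methylation stayed low for several kilobases. Runs were called here from the mean of all 6 libraries, which left 45 members with a run. In WT the cytosines within 500 bases outside the edge averaged 7.43% ± 0.225 (SD, n = 3) at members and 14.5% over 11172 runs of all genes. From 1 to 2 kb outside, the members averaged 8.76% ± 0.0560 (SD, n = 3) and all genes 45.6%. From 2 to 5 kb outside, the values were 14.1% and 41.7%. On average over cytosines, the step at the edge was thus smaller at the members than over all genes. However, 1 cytosine at 10% or more can set an edge inside a low stretch. From 500 to 1000 bases outside, the members averaged 6.34% in WT, under the 10% limit. In WT 8.09% of the members' cytosines lay from 10% to under 30%, against 3.07% of all cytosines. The part of this rule in the smaller step was not tested.

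**Figure D2:**
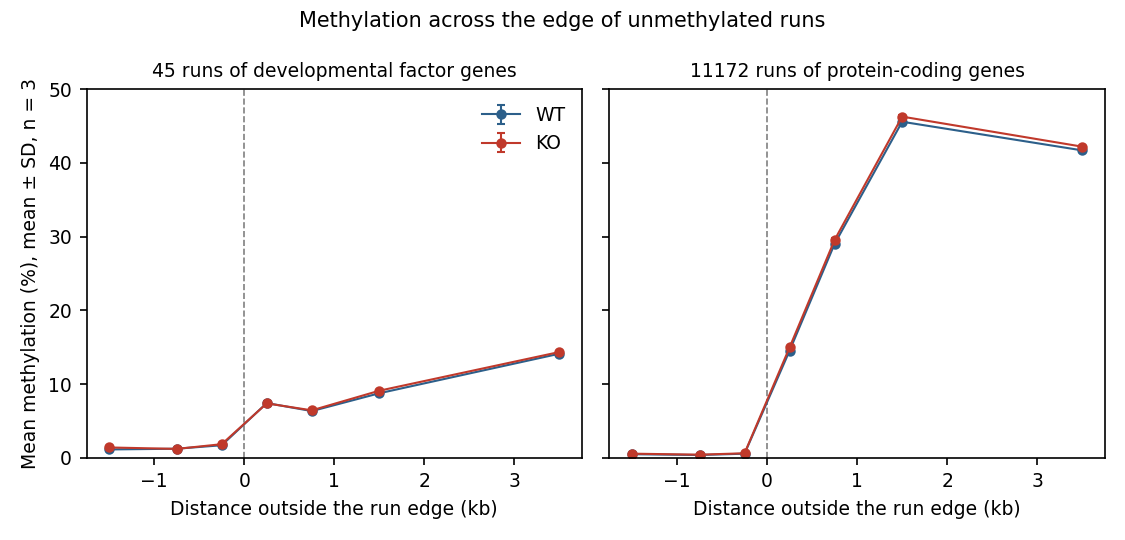
Mean methylation (%, vertical axis) against distance from the edge of the unmethylated run (kb, horizontal axis; negative is inside the run) for the 45 members with a run (left) and 11172 runs of protein-coding genes (right), in WT (blue) and KO (red). Points are means of 3 libraries and bars are SD, mostly smaller than the points. From 1 to 2 kb outside, WT was at 8.76% at the members and at 45.6% over all genes, and the 2 genotypes ran close together in both panels.

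The genotypes hardly differed at these edges. Within 500 bases outside, KO was at 7.38% ± 0.213 (SD, n = 3) against 7.43% in WT. From 500 to 1000 bases it was at 6.44% ± 0.241 (SD, n = 3) against 6.34% ± 0.166 (SD, n = 3). From 1 to 2 kb the 3 KO libraries (9.29%, 9.01% and 9.0%) were all above the 3 WT libraries (8.73%, 8.72% and 8.82%), a difference of 0.344 points. Over all genes the same distance was also separated, with a difference of 0.695 points. Inside the members' runs all KO libraries were above WT within 500 bases of the edge (1.85% against 1.71%) and from 1 to 2 kb (1.41% against 1.14%). From 500 to 1000 bases inside they overlapped. The 2 separated distances differed by 0.145 and 0.270 points at members. Over all genes both were separated as well, by 0.0561 and 0.0733 points.

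Averaged over each family, KO and WT differed by at most 0.344 points. With every cytosine weighted equally, the 49 genes together read 11.2%, 11.2% and 11.0% in KO and 10.9%, 10.9% and 11.0% in WT, a difference of 0.144 points with overlapping libraries. Over all protein-coding gene spans KO was at 25.7% ± 0.0897 (SD, n = 3) and WT at 25.4% ± 0.0859 (SD, n = 3), with all KO libraries above all WT libraries. No p-value is given for these family means, since the genes were chosen with results known.

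The Fox members were the least methylated family, at 5.59% ± 0.0632 (SD, n = 3) in KO and 5.52% ± 0.0790 (SD, n = 3) in WT over 3177 cytosines. The Tbx members followed at 8.24% ± 0.173 (SD, n = 3) in KO and 8.36% ± 0.0587 (SD, n = 3) in WT. The Gata members were at 11.4% ± 0.236 (SD, n = 3) and 11.0% ± 0.181 (SD, n = 3). In these 3 families the libraries of the genotypes overlapped. The Pax members, at 12.9% ± 0.169 (SD, n = 3) in KO and 12.6% ± 0.0860 (SD, n = 3) in WT, overlapped as well.

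The Sox members were the most methylated family and the one in which every KO library was above every WT library. They read 20.7%, 20.7% and 20.6% in KO and 20.3%, 20.2% and 20.4% in WT, a difference of 0.344 points. Sox5, a factor of cartilage and neurons whose gene is close to a megabase long, supplied 335 of the 2135 Sox cytosines. Without Sox5 the family was at 10.7% ± 0.0970 (SD, n = 3) in KO and 10.5% ± 0.207 (SD, n = 3) in WT, the libraries overlapped, and the difference was 0.171 points.

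**Figure D3:**
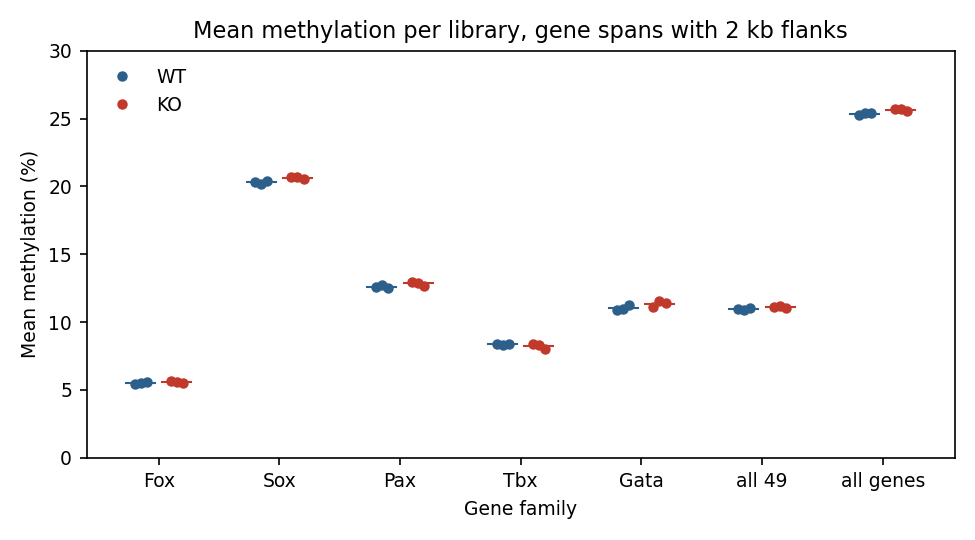
Mean methylation (%, vertical axis, each cytosine weighted equally) per library for the 5 families, all 49 genes and all protein-coding genes, in WT (blue) and KO (red). Points are libraries and lines are means of 3. Fox is lowest (5.52% in WT) and Sox highest (20.3% in WT) of the families, and differences between genotypes are small beside those between families.

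Pooling reads instead of weighting cytosines equally raised these differences, to 3.25 points for Sox, 1.82 for Pax and 1.12 for all members, and turned Tbx from -0.111 to 0.335. Pooled, all KO libraries were above all WT libraries for Sox, for Sox without Sox5 (0.864 points), for Pax and for all members, as they were over all gene spans (3.52 points), while Fox, Tbx and Gata overlapped. The share of the members' reads that lay on cytosines at 70% or more in WT was 4.91%, 5.28% and 4.6% in KO and 3.36%, 3.90% and 4.39% in WT, all KO above all WT. Over all cytosines that share was 24.9% ± 1.16 (SD, n = 3) in KO and 20.1% ± 2.43 (SD, n = 3) in WT. The part of read placement in the pooled differences was not tested beyond the equal-weight values given beside them.

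Cytosines grouped by their WT level differed between genotypes in both directions. The 8021 members' cytosines under 10% in WT averaged 2.62% ± 0.0587 (SD, n = 3) in KO and 2.37% ± 0.0172 (SD, n = 3) in WT, with KO libraries all above WT. The 788 cytosines from 10% to under 30% read 15.8%, 15.3% and 15.1% in KO and 16.8%, 16.0% and 17.2% in WT, all KO below all WT. Over all measured cytosines that class ran the other way, at 19.1% ± 0.387 (SD, n = 3) in KO and 17.9% ± 0.497 (SD, n = 3) in WT.

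Classes set on WT values select on 1 of the 2 genotypes, and they were therefore also set by the mean of all 6 libraries. The members' class from 10% to under 30% then held 785 cytosines at 16.6% ± 0.610 (SD, n = 3) in KO and 16.5% ± 0.635 (SD, n = 3) in WT, with overlapping libraries. Over all cytosines the same class kept a difference of 1.43 points, with all KO libraries above WT. The lower value of KO in the members' class thus depended on how the class was set. The members' class under 10%, set in this way, was at 2.50% ± 0.0705 (SD, n = 3) in KO and 2.43% ± 0.0196 (SD, n = 3) in WT. All KO libraries were still above WT, but the difference was 0.0753 points in place of 0.249.

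Across 1 kb tiles no member tile was called. A tile is a stretch of the genome grid with at least 3 cytosines, and it was called where a quasi-binomial model of C and T reads (overdispersion moderated with limma) gave a Benjamini-Hochberg adjusted p under 0.05 over all tiles and the pooled difference was at least 10 points. Of 429 member tiles 0 were called, beside 0.112% of 108802 tiles, all of which were higher in KO. At an unadjusted p under 0.05, 18 member tiles (4.20%) were higher in KO, beside 5.74% of all tiles, and 8 (1.86%) were lower, beside 1.46%. edgeR and limma on log ratios also called 0 member tiles.

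The KO libraries were all above the WT libraries in 27 member tiles (6.29%), beside 8.35% of all tiles, and all below in 17 (3.96%), beside 3.36%. KO was higher in 271 of 429 (63.2%), beside 59.8%. The median difference was 0.194 points in member tiles and 0.176 points over all tiles. These shares were near those of all tiles, but member tiles and all tiles differ in methylation level. Grouped by the mean of all 6 libraries, tiles under 10% had a median difference of 0.141 points in members and 0.0499 over all tiles. From 10% to under 30% the medians were 0.581 and 1.05 points.

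Most member tiles were low: 254 of 429 (59.2%) were under 10% in WT, against 24.2% of all tiles, and 66 (15.4%) were at 90% or more, against 47.9%. The share under 10% was 84.7% for Fox (61 of 72 tiles), 73.6% for Tbx (64 of 87), 56.4% for Pax (57 tiles), 54.8% for Gata (23 of 42) and 38.6% for Sox (49 of 127). Sox5 alone supplied 52 of the Sox tiles.

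**Figure D4:**
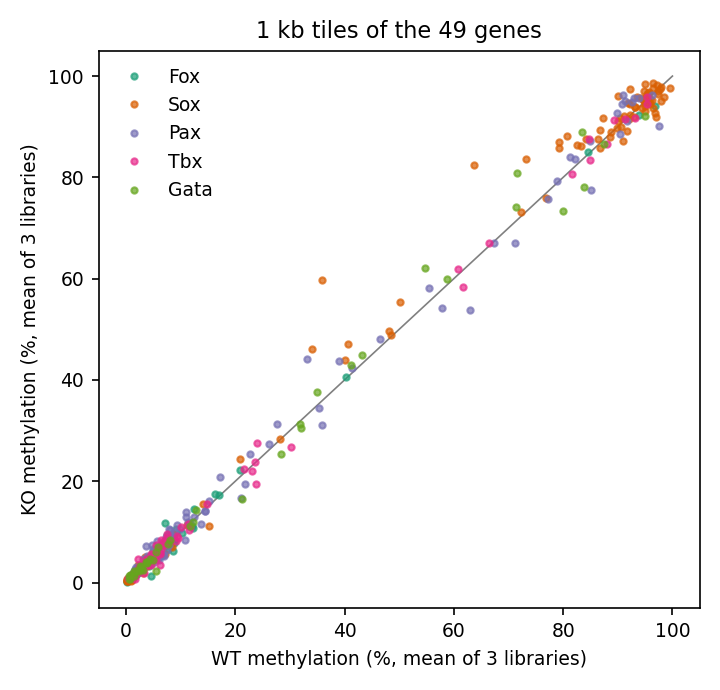
KO methylation (%, vertical axis) against WT methylation (%, horizontal axis) of the 429 member tiles, each the mean of 3 libraries, coloured by family. Most points lie near 0 in both genotypes (254 tiles under 10% in WT), and the farthest above the diagonal is a Sox5 tile at 35.9% in WT and 59.8% in KO.

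The tiles named here are those with the largest differences in each family among tiles whose libraries did not overlap, and the 5 with the smallest p. Every ranking of tiles below is among such separated tiles. The Sox family held the largest differences. The Sox5 tile chr6:144674001-144675000, within the gene 107.8 kb from its start, read 53.6%, 58.2% and 67.5% in KO and 21.5%, 41.2% and 45.0% in WT. All KO libraries were above all WT libraries, and WT 1 was the lowest by far. The pooled difference was 22.3 points (p = 0.000447, adjusted p = 0.146 by the quasi-binomial test). Without WT 1 it was 17.1 points. All 6 of its cytosines were higher in KO, with WT means from 22.9% to 53.0% and KO means from 42.2% to 70%. They lie close together, at positions 144674119 to 144674175. The tile was chosen by its difference, so the agreement of its cytosines adds no separate support.

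Sox8, a factor of neural crest and testis, had a tile at chr17:25569001-25570000, 1.19 kb into the gene. It read 85.2%, 81.6% and 84.1% in KO and 74.6%, 71.6% and 73.3% in WT, a difference of 10.6 points (adjusted p = 0.192 by the quasi-binomial test). All 4 cytosines were higher in KO, but this tile too was chosen by its values. Sox6, which also acts in red cell and muscle development, had a tile 10.3 kb into the gene with 81.7%, 82.6% and 83.3% in KO and 72.4%, 54.0% and 64.5% in WT. It had only 3 cytosines with 50 to 152 reads per library, and an adjusted p of 0.629. All 3 tiles were partly or highly methylated in WT. The most negative difference among Sox tiles lay in Sox5 652.8 kb from the start, with 97.0% ± 2.08 (SD, n = 3) in WT and 91.9% ± 2.75 (SD, n = 3) in KO (adjusted p = 0.804).

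The named Fox tiles, chosen among those with separated libraries, differed by at most 1.77 points. At Foxd2, a forkhead factor of the kidney, the tile chr4:114907001-114908000 read 6.37%, 6.36% and 6.20% in KO and 4.69%, 5.10% and 5.29% in WT. With 84 cytosines and 10559 to 14020 reads per library it was the most deeply read of the named tiles, and the difference of 1.29 points had p = 0.000771 and an adjusted p of 0.192 by the quasi-binomial test. Of the 84 cytosines 45 were higher in KO. Foxl1, a factor of the gut mesenchyme, had 9.35% ± 0.923 (SD, n = 3) in KO and 7.59% ± 0.537 (SD, n = 3) in WT (adjusted p = 0.738), and the most negative difference among the separated Fox tiles, at Foxa3, was between 94.0% ± 0.546 (SD, n = 3) in WT and 92.4% ± 1.11 (SD, n = 3) in KO (adjusted p = 0.726).

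Among the Pax genes, Pax9, a factor of teeth and thymus, had a tile across the lower end of its annotated span, chr12:56691001-56692000. Its 28 cytosines lay at positions 56691192 to 56691562, all below that end at 56691693. The RefSeq start was 3778 bases further in, and its promoter had 0 measured cytosines. The tile read 2.42%, 2.26% and 3.23% in KO and 1.62%, 1.21% and 1.91% in WT, a difference of 1.16 points (p = 0.00541, adjusted p = 0.445 by the quasi-binomial test). Pax7, a muscle stem cell factor, held 2 tiles that were lower in KO. The tile 73.0 kb into Pax7 read 86.8%, 89.0% and 94.5% in KO and 98.1%, 97.2% and 97.4% in WT (adjusted p = 0.429), and the tile 25 kb into it read 58.2%, 51.8% and 51.5% in KO and 63.2%, 66.7% and 59.0% in WT (adjusted p = 0.559). In both, all KO libraries were below all WT libraries. The 2 Pax2 tiles with the largest positive differences among Pax genes were highly methylated, at 90.7% ± 1.62 (SD, n = 3) and 93.0% ± 2.07 (SD, n = 3) in WT, and KO was 3.70 and 2.59 points higher (adjusted p of 0.794 and 0.828).

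Tbx and Gata tiles showed both directions. Tbx5, a heart and forelimb factor, had the most negative Tbx difference, with 20.2%, 19.7% and 18.5% in KO and 22.8%, 21.7% and 26.6% in WT (adjusted p = 0.610). KO was 1.36 points higher in a Tbx4 tile 4.13 kb into the gene, and 1.16 points higher in Tbx15, a skeletal factor (adjusted p of 0.808 and 0.859). Gata4, a heart and endoderm factor, held both the most positive and the most negative difference of its family. In its tile chr14:63213001-63214000 KO was at 80.8% ± 2.01 (SD, n = 3) and WT at 71.5% ± 3.01 (SD, n = 3), and in chr14:63202001-63203000 KO was at 78.2% ± 2.65 (SD, n = 3) and WT at 83.8% ± 1.41 (SD, n = 3) (adjusted p of 0.713 and 0.711). The Gata6 tile across its lower end was at 1.25% ± 0.344 (SD, n = 3) in KO and 0.573% ± 0.178 (SD, n = 3) in WT (adjusted p = 0.549).

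**Figure D5:**
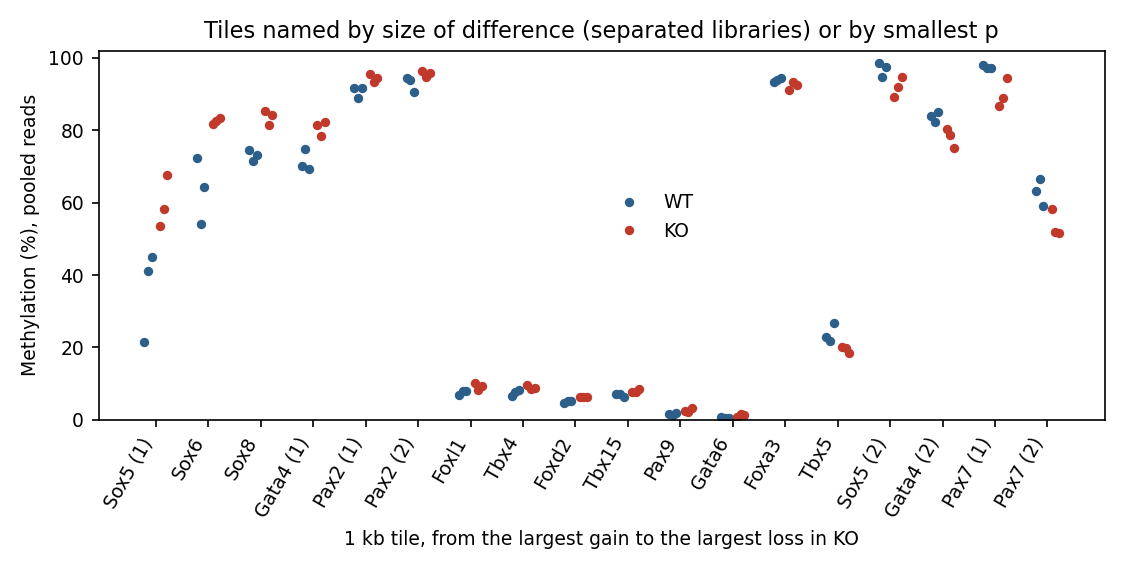
Methylation (%, pooled reads, vertical axis) of the named 1 kb tiles per library in WT (blue) and KO (red), ordered from the most positive to the most negative difference of KO from WT, with a number after a gene that has 2 tiles. The Sox5 tile at the left reads 53.6% to 67.5% in KO and 21.5% to 45.0% in WT, while the Fox, Tbx4, Tbx15, Pax9 and Gata6 tiles in the middle differ by under 2 points.

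Whole spans gave no call either. Of 49 spans 0 were called by the quasi-binomial test, beside 0% of 16437 spans of all genes, and limma and edgeR also called 0. At an unadjusted p under 0.05, 9 spans (18.4%) were higher in KO, beside 21.9% of all spans, and 0 were lower, beside 0.189%. By family these were 4 of 7 Pax, 3 of 14 Sox, 1 of 15 Fox, 1 of 9 Tbx and 0 of 4 Gata spans. KO was higher in 39 of 49 pooled spans (79.6%), beside 81.1% of all spans. The KO libraries were all above WT in 10 spans (20.4%), beside 24.9%, and all below in 1 (2.04%), beside 1.16%. Pooled over reads, the median difference was 0.331 points for members and 1.0 point for all spans, and with equal weights it was 0.166 and 0.157.

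With equal weights the spans ranged from 1.17% at Foxd1, a kidney stroma and retina factor, to 72.8% at Sox5 in WT, with a median of 5.92% against 20.6% over all spans. Under 10% lay 33 of the 49, 12 lay from 10% to under 30%, and 4 (Pax8, Sox8, Sox10 and Sox5) at 30% or more. KO was higher in 34 of 49 (69.4%), beside 70.7% of all spans. All KO libraries were above all WT libraries in 5 spans, Foxd2, Gata6, Pax9, Sox4 and Sox5, a share of 10.2% beside 14.4% of all spans, and all below in 1, Tbx1, a share of 2.04% beside 2.13%.

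Pax9 read 7.59%, 7.49% and 8.43% in KO and 6.04%, 6.56% and 6.03% in WT with equal weights. Its pooled difference was 1.96 points (p = 0.00844, adjusted p = 0.132 by the quasi-binomial test). Pax9 was higher in all 3 KO libraries under either weighting, over 89 cytosines. Sox5 read 73.9%, 74.1% and 74.2% in KO and 72.4%, 73.2% and 72.9% in WT, and its pooled difference of 6.77 points had an adjusted p of 0.160. Sox4 read 4.46%, 4.38% and 4.50% in KO and 4.08%, 4.07% and 4.13% in WT, but pooled over reads its libraries overlapped (adjusted p = 0.718).

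Foxd2 read 2.25%, 2.50% and 2.50% in KO and 1.80%, 2.03% and 1.98% in WT (adjusted p = 0.136). Gata6 read 6.12%, 6.19% and 5.71% in KO and 5.35%, 5.55% and 5.44% in WT with equal weights, and its pooled libraries overlapped (adjusted p = 0.439). Tbx1 went the other way, with 6.95%, 6.60% and 6.81% in KO and 7.36%, 7.19% and 7.15% in WT over 446 cytosines, and an adjusted p of 0.526 for the pooled values. These 6 genes differed by 0.352 to 1.63 points in size.

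Pax8 had the largest pooled difference of any member span, and most of it depended on the weighting. Pooled, it read 28.4%, 34.1% and 27.3% in KO and 16.9%, 19.5% and 22.8% in WT, a difference of 10.3 points (adjusted p = 0.130). With equal weights over its 41 cytosines it was at 36.4% ± 0.729 (SD, n = 3) in KO and 34.8% ± 1.18 (SD, n = 3) in WT, and the libraries overlapped. The same was seen at Sox6, where a pooled difference of 6.39 points (adjusted p = 0.134) became 0.239 points, and at Pax2, where 1.87 points (adjusted p = 0.134) became -0.102. At Tbx4 the pooled difference, the largest of its family, was 2.31 points (adjusted p = 0.222) and became 0.0258. The largest difference among Gata spans was at Gata4, with 1.06 points (adjusted p = 0.231), and among Fox spans at Foxa3, with 0.745 (adjusted p = 0.689). With equal weights these became 0.252 and -0.0699, and the most positive differences were at Gata6 (0.559 points) and Foxd2 (0.480 points).

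The most negative pooled differences were small. Foxe1 differed by -0.634 points (adjusted p = 0.412), Tbx1 by -0.411 and Sox11 by -0.330 (adjusted p = 0.655), and no Pax or Gata span was lower in KO. Gata2 was at 15% ± 0.973 (SD, n = 3) in KO and 14.9% ± 0.403 (SD, n = 3) in WT with equal weights, and Eomes at 3.5% ± 0.455 (SD, n = 3) and 3.53% ± 0.127 (SD, n = 3), with overlapping libraries in both.

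At gene starts 0 of 58 member windows were called (both gene ends were read where the strand was not known), beside 0% of 14338 windows, and limma and edgeR called 0 as well. At an unadjusted p under 0.05, 5 windows (8.62%) were higher in KO, beside 4.72%, and 0 were lower, beside 0.802%. The libraries were all above in 3 (5.17%), beside 7.87%, and all below in 3 (5.17%), beside 2.48%. The Pax9 start read 2.36%, 2.29% and 3.40% in KO and 1.57%, 1.13% and 2.09% in WT (adjusted p = 0.821 by the quasi-binomial test). The Foxd2 start was at 0.756% ± 0.132 (SD, n = 3) in KO and 0.472% ± 0.102 (SD, n = 3) in WT (adjusted p = 0.866 by the quasi-binomial test moderated with limma). Pooled over reads, the Foxd2 libraries overlapped. Among the separated windows, the largest pooled difference was a loss at the upper end of Gata4 (-5.43 points, adjusted p = 0.891 by the same test). Its 9 cytosines were at 22.5% ± 2.91 (SD, n = 3) in KO and 28.5% ± 2.89 (SD, n = 3) in WT with equal weights. The upper end of Foxe1 differed by -0.767 points pooled (adjusted p = 0.885 by the same test). In the Gata4 and Foxe1 windows all KO libraries were below all WT libraries under either weighting. The other window below WT was the Tbx4 start. The other windows above WT, at Tbx2 and Sox9, overlapped with equal weights. All these windows overlap the span of the same gene and were singled out after their values were seen.

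Of 8951 single member cytosines 0 were called by the quasi-binomial test, beside 0.000731% of 1095119. At an unadjusted p under 0.05, 422 (4.71%) were higher in KO, beside 5.31%, and 428 (4.78%) were lower, beside 3.17%.

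Other members of the same families, from a list of 46 genes that includes the B cell factors Pax5 and Foxo1, also gave 0 called spans among 43 tested. By the unadjusted p, KO was higher in 9 and lower in 0, beside 21.9% and 0.189% of all spans, and their median pooled difference was 0.920 points, beside 1.0 point over all spans. The smallest p was at Foxp4, at 41.3% ± 1.02 (SD, n = 3) in KO and 37.6% ± 0.401 (SD, n = 3) in WT (adjusted p = 0.130 by the quasi-binomial test), followed by Foxo1 with 2.09 points and Pax5 with 5.11 points (adjusted p of 0.130 and 0.132). With equal weights these differences were 0.898 points at Foxp4, 0.295 at Foxo1 and 0.712 at Pax5, and the Pax5 libraries overlapped. Of 37 genes for Polycomb subunits and enzymes that write or remove methyl groups, 0 were called, and KO was higher in 11 and lower in 0 by the unadjusted p, beside the same 21.9% and 0.189%. Bcor (1.32 points), Suz12 (2.09) and Rnf2 (0.489), all Polycomb components, had the smallest p there, each with an adjusted p of 0.130. With equal weights Bcor differed by 0.452 points, Rnf2 by 0.153 and Suz12 by 0.00334, and the Suz12 libraries overlapped.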

How the data were processed

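Enhanced reduced representation bisulfite sequencing was done on 6 libraries, 3 KO and 3 WT. The deposited files list, for each CpG cytosine with at least 10 reads, the coverage and the percent of reads with C and with T, per the file headers; alignment used Bismark to GRCm38, per the submitters' processing notes, with no version stated in the sources used here. Counts of C and T reads were computed from the deposited coverage (a whole-number count) and percent, and came out whole for 100% of cytosines. PCR duplicates cannot be seen in these files, and errors cover counting and library spread only.

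Features were 1 kb tiles with at least 3 cytosines, gene spans with 2 kb flanks and at least 5, gene starts with 1 kb each side and at least 3, and single cytosines. Each was fitted with a quasi-binomial model in R 4.3.3, with 4 residual degrees of freedom and overdispersion moderated by limma 3.58.1 (squeezeVar) and held at 1 or above. p-values were adjusted by Benjamini-Hochberg over all features of a kind. Features with no C or no T read in any library were left out of the fit, a choice made after seeing the data. The fit was tested on simulated data. Alternatives included edgeR 4.0.16, limma on log ratios, equal weights, other coverage minimums and leaving out each library.

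The members and lists were chosen with earlier results of these data known. Named features were, per family, the 2 tiles with the most positive and the 1 with the most negative difference among those with separated libraries, the spans with the extreme differences, the 5 tiles with the smallest p, the 5 longest runs, the 5 highest starts, Sox4, Gata2 and Eomes, and the 3 smallest p of each other list. Run edges were read in distance bins.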

Additional observations from a re-analysis of the deposited data

How the results depend on the processing

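In every alternative run, 0 member tiles, spans or start windows were called, including edgeR, limma on log ratios, no moderation, the replicate block and leaving out each library. With features that have no C or no T read kept in the fit, an alternative added after seeing the data, 0 of all tiles were called in place of 122. Without WT 3, 235 spans of all genes were called in place of 0, none of them a member. At an unadjusted p under 0.05, member tiles lower in KO numbered 3 with edgeR, 4 with limma, 5 with at least 5 cytosines per tile and 13 without KO 2, in place of 8, and tiles higher in KO numbered 10 with edgeR and 10 without WT 2, in place of 18. Member spans higher in KO numbered 5 with limma and 5 with equal weights, in place of 9, and 1 was lower with equal weights. Start windows higher in KO numbered 1 with edgeR, limma or no moderation and 2 without WT 3, in place of 5.

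Pooling reads moved the difference between KO and WT to 3.25 points for Sox, 1.82 for Pax, 0.335 for Tbx, 0.640 for Gata and 1.12 for all members, and leaving out Sox5, added after seeing the data, moved Sox to 0.171. Leaving out each library gave 0.0327 to 0.111 for Fox, 0.277 to 0.409 for Sox, 0.169 to 0.328 for Pax, -0.179 to -0.0136 for Tbx, 0.223 to 0.455 for Gata and 0.112 to 0.195 for all members. The median run was 2.42 kb with a limit of 20% and 1.12 kb with a gap of 1 kb, in place of 1.60 kb; the cause of these moves is the rule itself.

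Among 40 named features in 586 pairs of feature and setting, 15 changed sign and 0 became called. With equal weights the difference was -0.0699 for the Foxa3 span, -0.0299 for the Eomes span, and 0.204, 0.674 and 0.0225 for the Tbx4, Gata5 and Foxa3 starts. Leaving out each library gave ranges across 0 of -0.0363 to 1.26 for the Foxa3 span, -0.110 to 0.375 for the Eomes span, -0.882 to 0.479 for the Gata5 start, -0.724 to 0.286 for the Foxa3 start and -0.428 to 0.742 for the Pax1 start, and the cause was not tested. Replicate numbers did not pair the libraries: correlations of same-numbered deviations were 0.048, -0.029 and -0.007 over 29505 tiles. The replicate block gave 3 start windows above and 1 below at that unadjusted threshold. The alternative without flanks was not run for start windows, which have none. With 3 libraries per genotype, an exact permutation test of 1 value cannot go below 0.1.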
